A study of Gallus gallus with 21 samples.

Results

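The genes of chicken chromosome 16 were examined in RNA sequencing of the trunk neural tube of 21 chick embryos. A gene was taken as a member where its first exon in the deposited count table lay on chromosome 16 and at least 10 counts were reached in 5 or more libraries. Of 145 genes listed on the chromosome, 109 had at least 1 count and 71 were members, against 14426 genes of the whole table of 24356 that met the same count rule. The rule used only position and count, not the study's groups. At its edge, 2 genes reached 10 counts in 4 libraries and stayed out, with 30 as their highest count, and 1 gene reached it in 5 libraries and came in, with 15 as its highest. At the other end, 48 members had at least 10 counts in all 21 libraries.

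The study asked what changes in the trunk neural tube when MOXD1, a gene of the trunk neural crest, is knocked out with CRISPR/Cas9. The control group (CTRL, genotype WT) held 9 embryos and the knockout group (KO, genotype MOXD1 KO) 12, all from commercially bought fertilised eggs. Per the labels' protocols, constructs were injected into the lumen of the neural tube at Hamburger-Hamilton stage 10+/11 and electroporated on one side only, so that edited and unedited cells can be mixed in a KO library. What the controls were injected with, when embryos were collected and how many cells were edited is not stated in the sources. The deposited gene IDs were not paired with symbols in the files, and 0 of them matched the RefSeq list at hand, so the level of MOXD1 and markers of the tissue were not analysed here, and members are given by ID and position on the GRCg6a build.

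Chromosome 16 is a microchromosome that carries the major histocompatibility complex (MHC) of the chicken, in a B and a Y region, beside the array of ribosomal RNA genes that forms the nucleolus. MHC class I molecules show peptides to cytotoxic T cells and class II molecules to helper T cells, and both regions are known for haplotypes that differ between birds in sequence and, in places, in gene content. Female birds carry a Z and a W chromosome and males a pair of Z, so counts of W genes mark an embryo as female-like or male-like.

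Total counts ran from 16164404 to 21133788 per library. With a W share of counts above 0.1% taken as female-like, 15 libraries were female-like and 6 male-like. The male-like libraries were CTRL 9 and KO 1, 3, 5, 9 and 10, so that 5 of 6 were KO, and the state of the embryo and the group were not evenly crossed. CTRL 1 and KO 8 stood apart over the whole transcriptome: the SD of their log2 differences from the median library was 1.05 and 1.09 over all tested genes, against 0.40 to 0.72 in the other 19 libraries. Over the tested chromosome 16 genes it was 0.78 and 0.74, inside the 0.46 to 1.11 of the others. The listed genes lay between positions 501635 and 2843493, and none started in the first 0.5 Mb. Members were sparse from 1.0 to 1.5 Mb, with 3 of 22 listed genes, and dense from 2.5 to 3.0 Mb, with 27 of 35. Exons of 14 members overlapped those of another gene on the same strand and exons of 7 those of a gene on the opposite strand. Counting used strand and left out reads shared by overlapping or near-identical genes, per the file headers, so members of families of like copies may be undercounted.

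Most members were expressed at a low level in the trunk neural tube, and 1 gene gave more than all others on the chromosome together. Levels are in CPM, counts relative to the library total and scaled to a common library size, and between genes they are set side by side per kilobase of exon. The median member stood at 3.93 CPM per kilobase, against 8.95 for all genes that met the count rule. The highest, ENSGALG00000041471 (16:2738933-2745467, minus strand), had 2681 CPM per kilobase. Its CPM ran from 4688 through a median of 5065 to 6867 in CTRL and from 5096 through 6063 to 8132 in KO. It was high in every embryo and varied 1.73-fold from the lowest to the highest, with groups that overlapped.

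Next came ENSGALG00000000122 (2525327-2529817, minus strand) with 604 CPM per kilobase, and ENSGALG00000000156 (2574359-2580734, minus strand) with 139.5. ENSGALG00000039964 (2333312-2337847, plus strand) had 84.3 and ENSGALG00000049626 (2439178-2443648, plus strand) 77.8. Across libraries the ranges of the leading gene, ENSGALG00000000122 and ENSGALG00000000156 did not overlap. ENSGALG00000039964 ran from 57.7 to 159 CPM per kilobase, which overlapped the 112 to 184 of ENSGALG00000000156 and the 36.2 to 125 of ENSGALG00000049626. The level of ENSGALG00000000122 ran from 864.3 through 1392 to 2424 CPM in CTRL and from 1037 through 1281 to 1566 CPM in KO. CTRL 3 alone lay above all 20 other libraries, which reached 1566 CPM at most. The 9 CTRL values of ENSGALG00000000156 lay between 381 and 560 CPM and its 12 KO values between 343 and 509 CPM, with no library apart.

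At least 1 CPM was reached in every library by 42 members and in some libraries by 28, and 1 stayed under 1 CPM throughout. In 5 members at least 1 library was at 0 counts. The members present at 1 CPM or more numbered 57.6 ± 3.17 per CTRL library (SD, n = 9) and 56.6 ± 2.64 per KO library (SD, n = 12). The difference did not pass (2-sided exact permutation, p = 0.496; with adjustment for the 2 measures per library, adjusted p = 0.496). The difference of -0.972 members rested on few libraries: it was -0.216 without CTRL 1 and KO 8, -0.292 without CTRL 3, -0.542 without CTRL 1, -0.646 without KO 2 or without KO 8 and -1.54 without CTRL 2. Numbers per library ran from 53 to 63 in female-like and from 54 to 60 in male-like embryos.

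**Figure D1:**
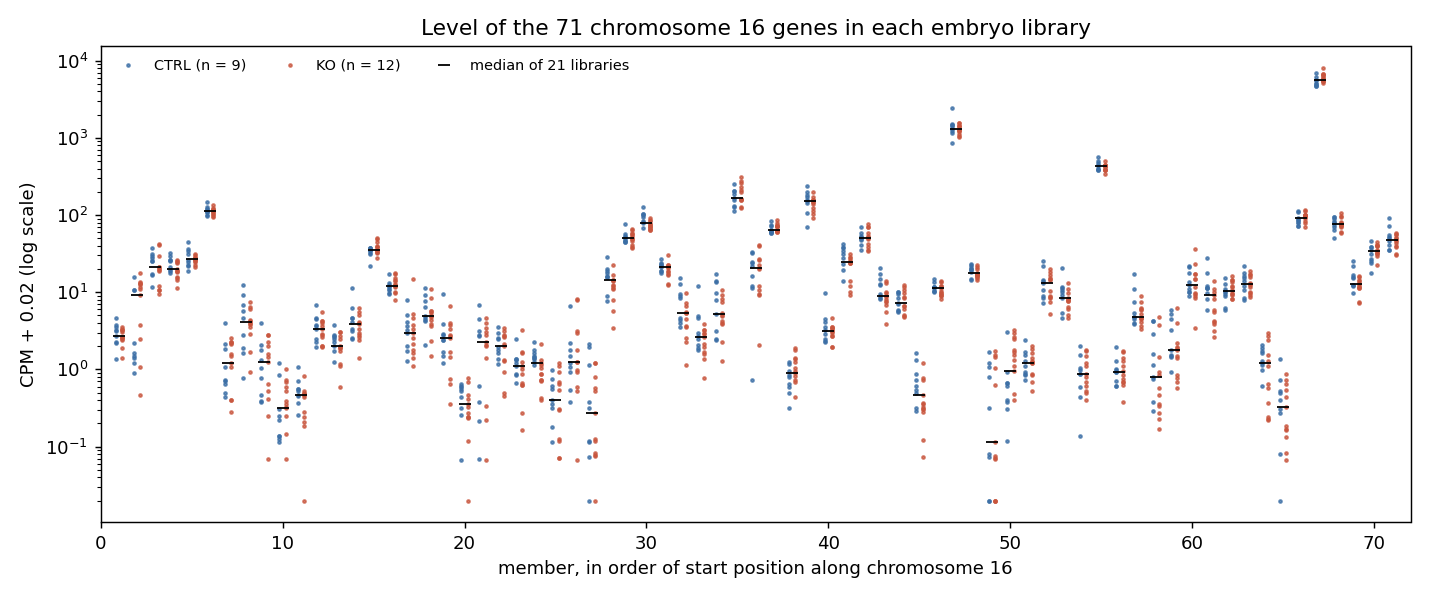
Level of the 71 chromosome 16 genes as CPM + 0.02 on a log scale, in order of start position, with 1 point per library (CTRL blue, n = 9; KO red, n = 12) and a bar at the median of the 21 libraries. A single gene, the 67th in order, stands near 5660 CPM, and many genes at a few CPM or less spread over more than 10-fold between embryos of the same group.

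All chromosome 16 genes together took 0.870% ± 0.0994 of counts in CTRL (SD, n = 9) and 0.916% ± 0.0903 in KO (SD, n = 12). The 2-sided exact permutation test over 293930 splits did not separate the groups (p = 0.281, adjusted p = 0.496). CTRL shares lay between 0.758% and 1.03%, KO shares between 0.806% and 1.11%, and 95% Wilson intervals, which cover counting error only, were narrow beside this range (0.754% to 0.762% in CTRL 2, the lowest library). The mitochondrial share, which enters the same total, was 7.98% ± 1.49 in CTRL and 9.08% ± 2.17 in KO. Taken over nuclear counts alone, the difference in chromosome 16 share was 0.0618 percentage points (exact permutation p = 0.242), beside 0.0459 over all counts. Without CTRL 1 and KO 8 the difference over all counts was 0.0575 (exact permutation p = 0.177). It was smaller within the 15 female-like libraries, at 0.0281 (exact permutation p = 0.618), and without KO 4, the highest library, at 0.0284 (exact permutation p = 0.459).

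The sign of that difference turned with the leading gene. ENSGALG00000041471 took 62.2% ± 4.90 of chromosome 16 counts in CTRL and 66.5% ± 1.91 in KO, from 51.8% in CTRL 3 to 69.3% in KO 4. Without it, the share of the remaining genes was 0.329% ± 0.0526 in CTRL and 0.306% ± 0.0184 in KO, a difference of -0.0230 percentage points (exact permutation p = 0.178). Neither direction passed the test. CTRL 3 held the highest of these remaining shares, 0.435%, and CTRL 9, the only male-like CTRL embryo, the lowest, 0.252%.

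**Figure D2:**
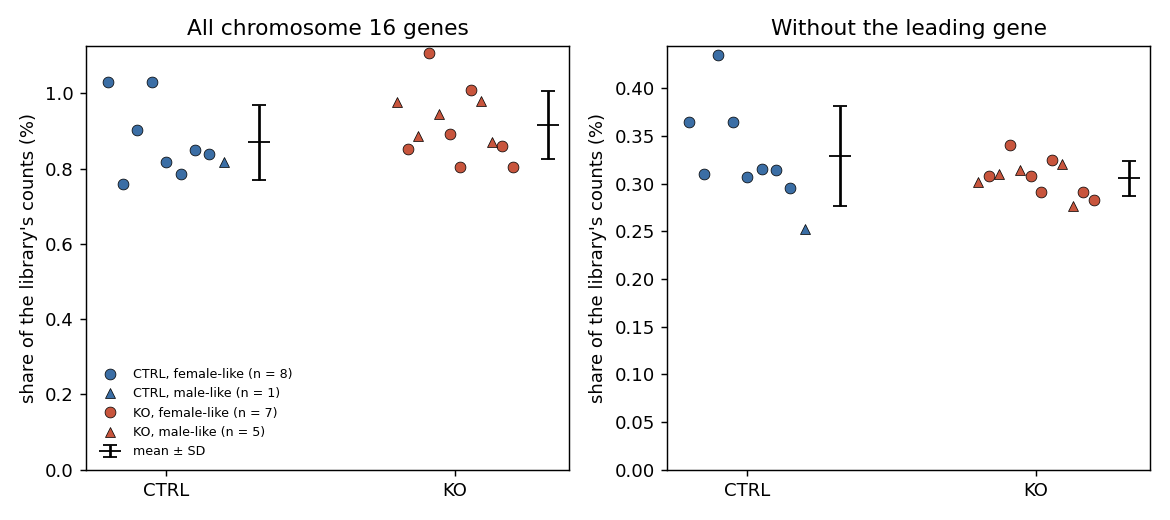
Share of each library's counts on chromosome 16, in percent, with all genes (left) and without the leading gene (right); circles are female-like and triangles male-like libraries, and black bars give the mean ± SD of 9 CTRL and 12 KO libraries. The KO mean lies above the CTRL mean on the left (0.916% and 0.870%) and below it on the right (0.306% and 0.329%), and the groups overlap in both.

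The median spread between embryos of one group was larger for chromosome 16 genes than for all tested genes, and close to theirs at higher levels. The SD of log2 CPM within groups had a median of 0.55 over the 65 members that passed the expression filter, against 0.40 over all 13809 genes tested. It exceeded 1 in 11 of the 65 members (16.9%) and in 8.27% of all tested genes. Members were also lower: their median of mean levels was 8.91 CPM, against 23.9 CPM over all tested genes. Where the mean reached 10 CPM, the median SD was 0.34 for 31 members and 0.32 for all 9334 genes. It exceeded 1 in 1 of the 31 members (3.23%) and in 379 of the 9334 genes (4.06%). These are descriptions, without a test. In bulk libraries, fewer cells that express a gene and less RNA per cell cannot be told apart.

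That 1 member was ENSGALG00000040185 (2341445-2347657, plus strand, 15 exon records), which is named after its values were seen. Its level was 0.70 CPM in CTRL 8 and 2.04 CPM in KO 2, and from 9.25 to 41.1 CPM in the other 19 libraries. The low embryos were 1 of each group, both female-like. The group medians were 22.2 CPM in CTRL and 20.5 CPM in KO. Across all members, the highest library exceeded the lowest more than 10-fold in 28 and less than 2-fold in 7. The 28 include the 5 members with a library at 0 counts and others whose lowest library held 1 count. No share over all genes that met the count rule stands beside these numbers.

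No member was switched between present and absent as strictly as the all-or-none rule asked. That rule required an empty interval of at least 8-fold between sorted libraries, with at least 2 libraries on each side, all under 1 CPM below it and all at 0.5 CPM or more above it. It was met by 0 of 71 members and by 61 of 14426 genes of the table (0.423%). Chromosome 16 genes with 10 counts in fewer than 5 libraries were not members, so genes present in only a few embryos were not examined. A looser rule was set after the values were seen. It asked for an empty interval of at least 2-fold with at least 3 libraries on each side, medians at least 4-fold apart on the CPM + 0.05 scale, and more than 3 counts in every library above. Under it 4 members (5.63%) were gapped, against 241 genes of the table (1.67%), of which 35 lay on W, 11 on Z and 195 on autosomes. With 2-fold replaced by 3-fold no member remained, and with 1.5-fold 10 met the rule, so the gaps were modest and the number depends on where the line is drawn. Without CTRL 1 and KO 8 the 4 genes still met it, with 1 more.

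ENSGALG00000031066 (505178-506622, minus strand, 3 exon records), near the start of the annotated stretch, divided the embryos almost evenly. In 10 libraries it ran from 0.449 to 3.79 CPM, with a median of 1.44, and in 11 from 9.31 to 17.9 CPM, with a median of 12.6. The upper libraries were CTRL 3, 4 and 9 and KO 1, 2, 3, 5, 8, 9, 11 and 12. They made up 3 of 9 CTRL and 8 of 12 KO embryos (Fisher's exact test, 2-sided, p = 0.198, adjusted p = 0.794 over 4 genes). By state they were 6 of 15 female-like and 5 of 6 male-like embryos. Its lowest library still held 8 counts, and an exon of it overlaps a gene on the opposite strand.

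ENSGALG00000000136 (2558049-2560828, minus strand) was close to the mirror image. It had 0 to 2 counts in 11 libraries, at most 0.0947 CPM, which is under the limit of 3 counts that a zero allows. In the other 10 it had 5 to 35 counts, or 0.296 to 1.71 CPM. The upper libraries were CTRL 1, 2, 6, 7 and 8 and KO 2, 4, 6, 7 and 10, or 5 of 9 CTRL and 5 of 12 KO embryos (Fisher's exact p = 0.670, adjusted p = 0.893). By state they were 9 of 15 female-like and 1 of 6 male-like embryos. At this depth the upper side is a low level too, and with 0.2 CPM in place of 0.05 CPM added before taking logs the gene no longer met the rule.

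The embryos that were high for one of these genes were low for the other in 19 of 21 libraries. Only KO 2 was on the upper side for both and only CTRL 5 on the lower side for both. Of the 240 other gapped genes of the table, ENSGALG00000000136 had the split closest to that of ENSGALG00000031066, in either direction, and the reverse held too. The next closest splits to that of ENSGALG00000031066, of 2 genes on chromosome 13 and 1 on chromosome 12, differed from it in 4 libraries. The split sides were set from the values and compared with 240 genes each, so the match is a description without a test.

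ENSGALG00000048880 (1974068-1983830, plus strand, 5 exon records) was low in 7 libraries, from 0.0475 to 0.591 CPM. In the other 14 it ran from 1.37 to 6.82 CPM, with a median of 2.90. The lower libraries were CTRL 2, 6, 7 and 8 and KO 2, 6 and 12, all female-like, so that the upper side held 8 of 15 female-like and 6 of 6 male-like embryos. It held 5 of 9 CTRL and 9 of 12 KO embryos (Fisher's exact p = 0.397, adjusted p = 0.794). With ENSGALG00000031066 it shared 9 upper and 5 lower libraries. The splits of 21 of 240 other gapped genes were as close to its own as the closest, at 3 libraries.

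ENSGALG00000047627 (2082890-2084768, minus strand, 5 exon records) was high in 3 embryos. CTRL 7 had 6.52 CPM, KO 5 had 8.23 and KO 11 had 7.85, and the other 18 libraries ran from 0.0475 to 3.11 CPM with a median of 1.12. One of the 3 high embryos, KO 5, was male-like. With any 1 of these 3 libraries left out the gene no longer met the rule, which asks for at least 3 on each side. The upper side held 1 of 9 CTRL and 2 of 12 KO embryos (Fisher's exact p = 1, adjusted p = 1). Without KO 5 or without KO 11 the sign of the difference between groups turned. None of the 4 gapped genes passed Fisher's exact test between CTRL and KO, and with groups of 9 and 12 an uneven split of moderate size could be missed.

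**Figure D3:**
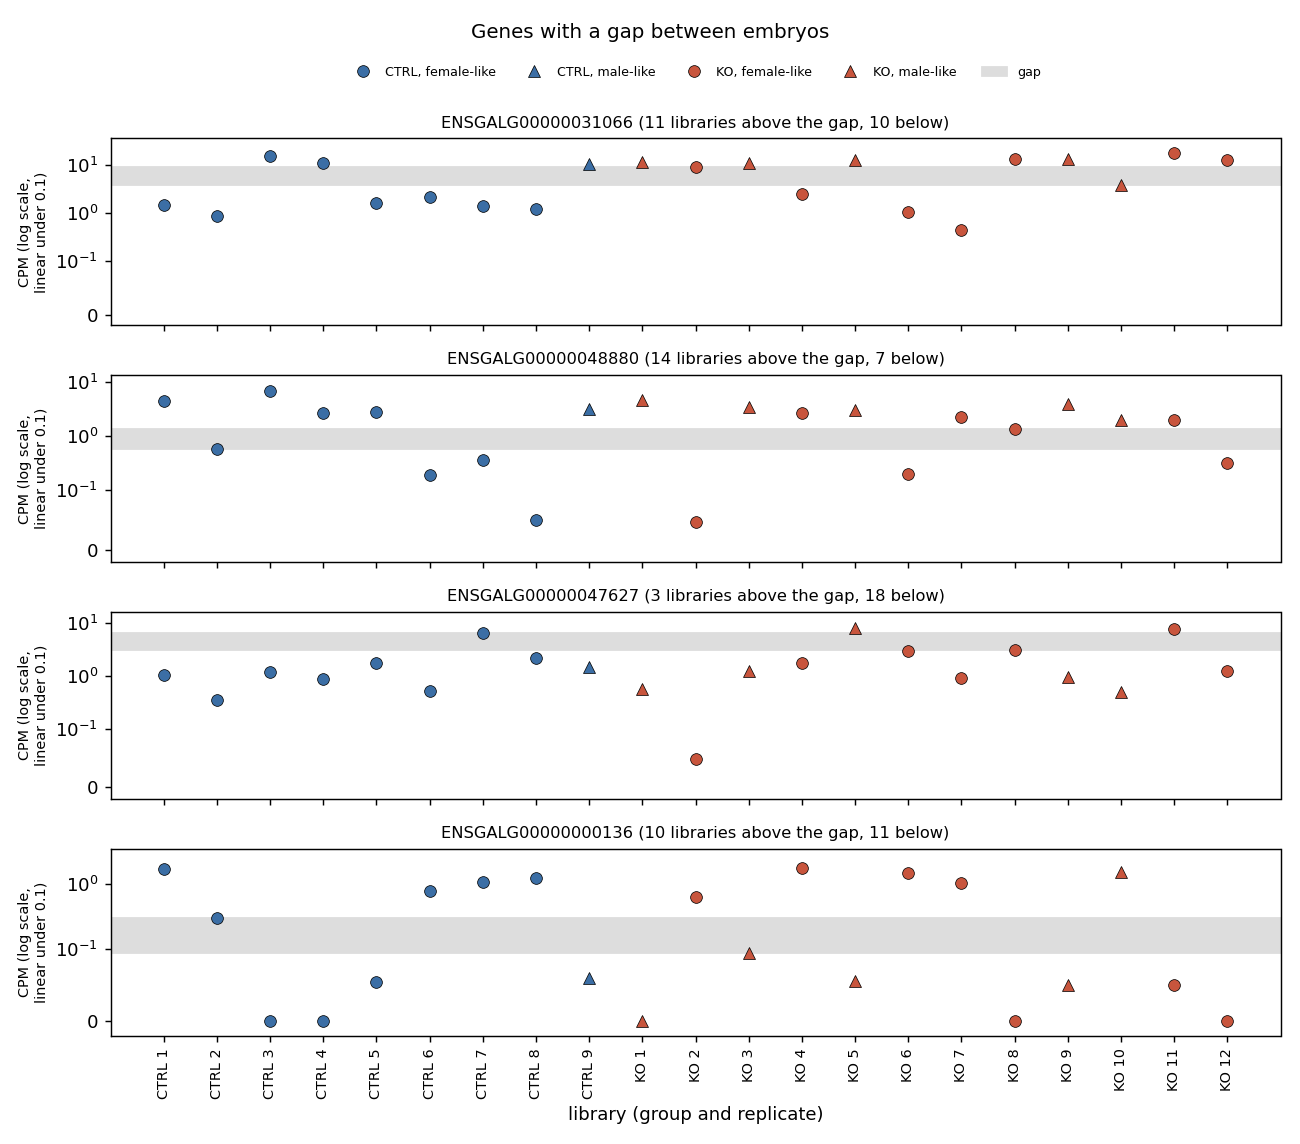
CPM of the 4 gapped chromosome 16 genes in each library, on an axis that is logarithmic above 0.1 CPM and linear below it; blue is CTRL and red KO, circles are female-like and triangles male-like, and the grey band is the gap. In the top panel 11 libraries lie above the gap and in the bottom panel 10 do, and 19 of 21 libraries take opposite sides in those panels, while both groups appear on both sides in every panel.

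Few neighbouring members varied together, in a share near that of neighbours over the whole table. Log2 CPM over the 21 libraries was correlated between each member and the next by start position, in 70 pairs, with a 2-sided permutation test of 100000 resamples. Pearson's r reached 0.7 in 4 pairs (5.71%), against 1084 of 14391 neighbour pairs over the whole table (7.53%). The pairs over the table include those of W, Z and the mitochondrial genome, and CTRL 1 and KO 8 are among the libraries. No share for autosomes alone or without these libraries is given. The median r was 0.20 for neighbouring members, 0.074 for the other 2415 pairs of members and 0.14 for neighbours over the table. All points share the library and its depth, and embryos of both groups are pooled in these values.

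In 3 of the 4 pairs, r kept to 0.7 or more without the 2 libraries farthest from the median of the first gene. The first was ENSGALG00000029381 (2592345-2605843, plus strand) with ENSGALG00000035075 (2596216-2601012, minus strand), which lies inside its span. Their r was 0.81 and rho 0.72 (permutation adjusted p = 0.0014 and 0.0052 over 70 pairs), with r of 0.73 without the 2 farthest libraries, 0.92 within CTRL and 0.70 within KO. ENSGALG00000029381 ran from 0.152 to 4.76 CPM and ENSGALG00000035075 from 0.549 to 6.14 CPM, and both were highest in KO 12, with CTRL 4, CTRL 8 and KO 2 above 3.5 CPM in both. ENSGALG00000029381 shares exon sequence with another gene on its strand, so its counts are uncertain.

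The second was ENSGALG00000037735 (2624745-2626354, plus strand) with ENSGALG00000039742 (2626854-2630699, plus strand), 499 bases apart. Their r was 0.80 and rho 0.79 (permutation adjusted p = 0.0014 and 0.0028), with 0.71 without the 2 farthest libraries, 0.89 within CTRL and 0.82 within KO. They ran from 5.95 to 16.001 CPM and from 7.88 to 22.1 CPM, and CTRL 6 and CTRL 9 were the lowest of both. The third was ENSGALG00000054667 (613212-620890, minus strand) with ENSGALG00000047665 (626758-628182, plus strand), 5867 bases apart on opposite strands. Their r was 0.79 and rho 0.75 (permutation adjusted p = 0.0014 and 0.0037), with 0.72 without the 2 farthest libraries, 0.55 within CTRL and 0.90 within KO. The fourth pair, ENSGALG00000051072 with ENSGALG00000054241, had r of 0.72 and 0.68 without the 2 farthest libraries, and ENSGALG00000042708 with ENSGALG00000051072 had 0.69 and 0.63. Without CTRL 4, without CTRL 7 or without KO 9, only 1 of the 3 pairs met all criteria, so the count rests on values close to the line. Without CTRL 1 and KO 8 all 3 met them.

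The closest relation between any members joined genes that were not immediate neighbours. Over all 2485 pairs, ENSGALG00000048322 (2785845-2788141, plus strand) and ENSGALG00000048814 (2798256-2810821, plus strand), 10114 bases apart near the end of the annotated stretch, had r of 0.93 and rho of 0.90. The permutation p was 1e-05 for both, the smallest 100000 resamples can give (adjusted p = 0.0124 and 0.0249 over 2485 pairs). Leaving out any 1 library gave r from 0.91 to 0.95, the 2 farthest libraries 0.90, and r was 0.94 within CTRL and 0.95 within KO. ENSGALG00000048322 ran from 9.64 through 15.2 to 25.2 CPM in CTRL and from 7.18 through 12.5 to 16.3 CPM in KO. ENSGALG00000048814 ran from 35.4 through 50.4 to 92.5 CPM in CTRL and from 30.6 through 46.8 to 59.4 CPM in KO. CTRL 3 and then CTRL 4 were highest for both genes, and KO 7 and KO 8 lowest for both.

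The gene between them, ENSGALG00000047574 on the minus strand, had r of 0.37 with the first and 0.46 with the second, which did not pass (permutation adjusted p = 0.223 and 0.129). It lies 792 bases from the first. All-pair testing was added after the values were seen, and the pair was picked as the highest of 2485. In all, 9 of the 2485 pairs met the criteria when tested over every pair, 3 of them neighbours and 6 farther apart. Among these 6, 1 held a gapped gene, for which a pooled r is not given. The criteria took positive r only, and 4 pairs of members that were not neighbours had r of -0.7 or lower. No share of all pairs over the whole table stands beside these counts.

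**Figure D4:**
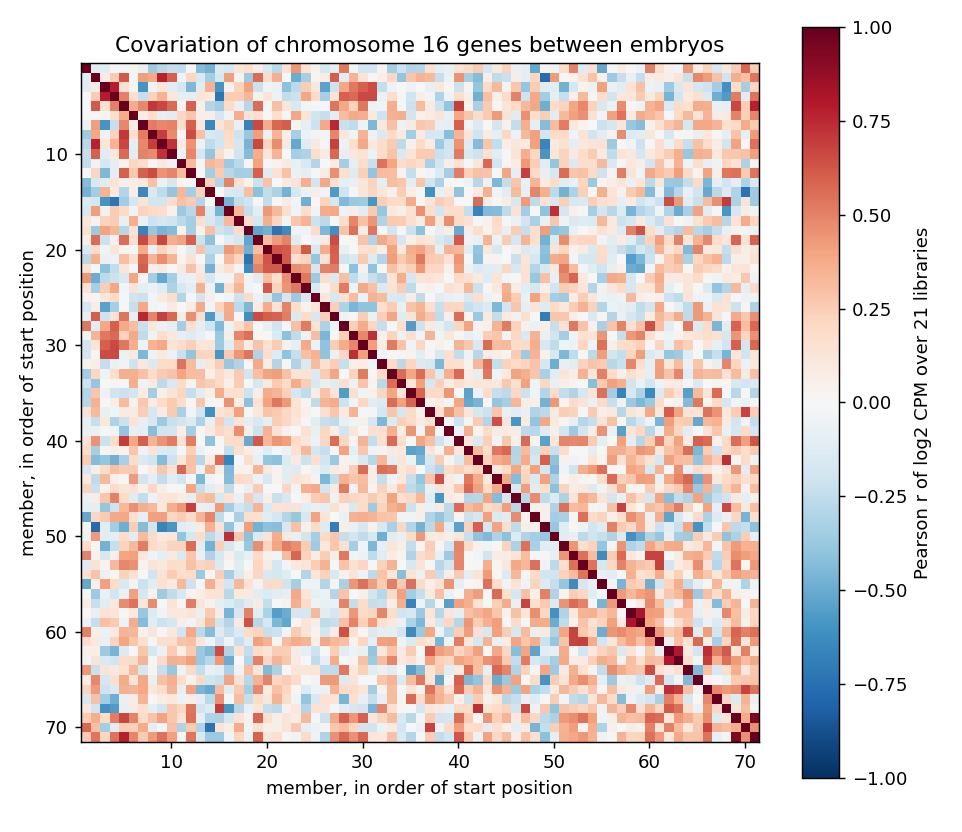
Pearson r of log2 CPM over 21 libraries between all 71 chromosome 16 genes, in order of start position; red is positive and blue negative. Most cells are pale (median r 0.074 for genes that are not neighbours), short red blocks follow the diagonal, and the darkest cell off the diagonal, in the lower right corner, is the pair with r of 0.93.

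No chromosome 16 gene differed between KO and CTRL at the threshold used. With edgeR's quasi-likelihood F test and Benjamini-Hochberg adjustment over 13809 genes, 0 of 65 members had an adjusted p under 0.05, as did 0.0% of all genes tested. DESeq2 called 0 of 71. At an unadjusted p under 0.05, edgeR had 1 member higher in KO (1.54%, against 2.58% of all genes). Another 7 were lower (10.8%, against 4.5% of all genes). DESeq2 had 2 higher and 7 lower of 71 at that threshold (12.7%), against 6.34% of the 20966 genes with any count. That wider set was not held to the count rule of the members, so the DESeq2 shares are not like for like. The median log2 change of the members was -0.14, against -0.016 for all genes tested, and 67.7% of members and 53.2% of all genes had a negative change. The 95% interval of the change lay within 2-fold either way for 45 of 65 members (69.2%), against 83.4% of all genes.

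Several of these counts moved with single libraries or with the W share. Without CTRL 1 and KO 8 no member passed, those with an edgeR p under 0.05 before adjustment were 1 higher and 6 lower (10.8%, against 5.93% of all genes), and the median change was -0.12. Without CTRL 3 the median change of the members was -0.021, against 0.0077 for all genes, and without CTRL 4 the members with an unadjusted p under 0.05 were 2 higher and 3 lower, which at 7.58% was close to the 7.53% of all genes. With the log2 W share as a covariate there were 1 higher and 3 lower (6.15%, against 4.29% of all genes). The 7 lower members lay between positions 626758 and 2624278, with log2 changes from -0.91 to -0.32. Of these, ENSGALG00000013101 (2276258-2395893) lies within the span of ENSGALG00000040101 (2272154-2410307) and shares exon sequence with it on the same strand. ENSGALG00000054397, also among the 7, shares exon sequence with another gene on its strand. The counts of these genes are therefore uncertain.

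The smallest p among members with lower values in KO belonged to ENSGALG00000049360 (2172921-2270522, minus strand, 18 exon records). It ran from 67.9 through 93.2 to 129 CPM in CTRL and from 63.4 through 72.0 to 92.8 CPM in KO. All 12 KO libraries lay below the CTRL median, and the ranges overlapped. The log2 change was -0.33 with an SE of 0.10 (edgeR p = 0.0033, adjusted p = 0.675).

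The next was ENSGALG00000032231 (2609635-2624278, plus strand), which has 120 exon records in the annotation, the sum over its transcripts. It ran from 5.85 through 11.4 to 28.02 CPM in CTRL and from 2.59 through 5.68 to 14.0 CPM in KO. KO 12 was the only KO library above the CTRL median, and CTRL 3 was the highest of all. The log2 change was -0.91 with an SE of 0.30 (edgeR p = 0.0063, adjusted p = 0.704).

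Among members with higher values in KO, ENSGALG00000028659 (2562353-2565190, plus strand) had the smallest p. It lies 1524 bases beyond ENSGALG00000000136 and shares exon sequence with a gene on the opposite strand. It ran from 0.0999 through 0.589 to 3.04 CPM in CTRL and from 0.380 through 1.58 to 3.23 CPM in KO. CTRL 9 was the only CTRL library above 1 CPM, and 10 of 12 KO libraries lay above the CTRL median. The log2 change was 1.14 with an SE of 0.47 (edgeR p = 0.0246, adjusted p = 0.704), and 1.78 without CTRL 9 (adjusted p = 0.334). CTRL 9 was male-like, and male-like libraries ran from 0.947 through 2.28 to 3.23 CPM, against 0.0999 through 0.638 to 2.60 CPM in female-like libraries. With the W share as a covariate the log2 change between groups was 1.00 (edgeR adjusted p = 0.946). The leading gene ENSGALG00000041471 came second in this direction, with a log2 change of 0.19 and an SE of 0.099 (edgeR p = 0.0672, adjusted p = 0.707). All 12 KO libraries lay above its CTRL median.

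**Figure D5:**
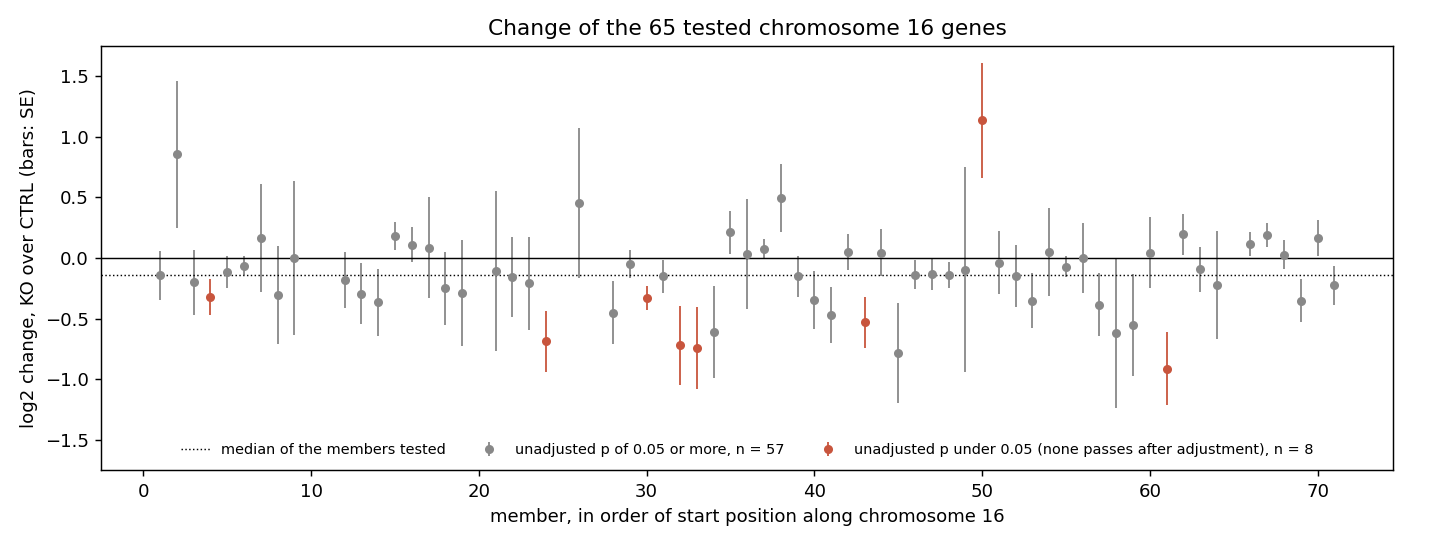
Log2 change of KO over CTRL for the 65 tested chromosome 16 genes in order of start position, with bars of 1 SE from the edgeR fit of 9 CTRL and 12 KO libraries; red marks an unadjusted p under 0.05 and the dotted line the median of -0.14. Of the 8 red points 7 lie below 0, and none passes after adjustment.

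Beside the group, the state of the embryo was fitted as the log2 share of W counts, in the same edgeR model. No member passed an adjusted p of 0.05, and only 4 of 13125 autosomal genes did. Over all 13809 genes, which include those of W and Z, 1.72% passed. At an unadjusted p under 0.05 there were 6 of 65 members (9.23%), against 2.21% of autosomal genes, 5 with a positive coefficient on the W share and 1, ENSGALG00000028659, with a negative one. The 5 were ENSGALG00000032405, ENSGALG00000044472, ENSGALG00000008022 and the overlapping pair ENSGALG00000029381 and ENSGALG00000035075. ENSGALG00000029381 ran from 0.24985 through 1.11 to 4.76 CPM in female-like and from 0.152 through 0.337 to 0.900 CPM in male-like libraries. For ENSGALG00000035075 the corresponding levels were 0.662, 1.89 and 6.14 CPM and 0.549, 1.13 and 2.15 CPM. The states overlapped in all 6, and the smallest adjusted p of the members for this term was 0.454 (edgeR).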

How the data were processed

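Deposited were raw fragment counts of each gene in 21 libraries (0 other columns of values) with exon lengths. Per the file headers, the authors made the counts with featureCounts 2.0.1, summing exons by gene (Ensembl release 101, GRCg6a), on the reverse strand and without options for multi-mapping or multi-overlapping reads. STAR and DESeq2 are named without versions in the submitters' processing notes. Per the labels, libraries came from 50 ng of total RNA through a stranded mRNA kit with 14 PCR cycles. No molecular identifiers are named, so intervals and floors cover counting error only.

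Here, CPM used TMM factors. Groups were compared with edgeR 4.0.16 (R 4.3.3; filterByExpr, quasi-likelihood F test, group as the only term, 2-sided, Benjamini-Hochberg over 13809 genes), fitted on the whole table. DESeq2 1.42.0, other factors, the replicate block, the W share and left-out libraries were alternatives. Correlations and SDs used log2 CPM with a prior count of 2. Functions were tested on simulated data. The planned family of 3 measures per library had 2, since no gene was all-or-none. The labels tie 1 library to 1 embryo; no batch is given. Within a group, chi-square per degree of freedom between libraries was at least 29.2, so none agreed within sampling noise.

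Named were the 5 members highest per kilobase, the 2 with the smallest p each way, the 5 closest neighbour pairs, and the 3 with the largest SD at a median of at least 1 CPM, which were all gapped. The looser gap rule, the all-pair test and the W term were added after seeing the data. Members, lists and rules were chosen with earlier results of these data known. Planned lists of genes by role and cell type need symbols and were not analysed here.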

Additional observations from a re-analysis of the deposited data

Results flagged for a closer look

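In 26 measures, the highest or lowest of the 9 CTRL libraries was set against the others, and 4 had a library far from the rest. Chance gives about 1 in 20 for measures picked without regard to their values. The 4 were levels of genes named from these same data, so that rate does not apply to them. ENSGALG00000000122 stood at 2424 CPM in CTRL 3, against 864.3 to 1525 CPM in the other CTRL libraries and 1037 to 1566 CPM in KO. ENSGALG00000051072 stood at 3.921 CPM in the same embryo, against 0.355 to 2.04 CPM in the others and 0.0497 to 2.80 CPM in KO. CTRL 3 was also the highest library for the pair ENSGALG00000048322 and ENSGALG00000048814.

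ENSGALG00000028659 stood at 3.036 CPM in CTRL 9, the only male-like CTRL embryo, against 0.0999 to 0.909 CPM in the others. KO libraries ran from 0.380 to 3.23 CPM. ENSGALG00000047627 stood at 6.521 CPM in CTRL 7, against 0.355 to 2.199 CPM in the others, and KO libraries ran from 0.0475 to 8.23 CPM with a gap of their own.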

How the results depend on the processing

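No member passed an adjusted p of 0.05 in any of 28 alternatives, and the 4 genes named by p kept their direction in all 28, with adjusted p from 0.334 to 0.953. At an unadjusted p under 0.05, 8 members became 4 with the W share as covariate and 5 to 11 when 1 library was left out. The median change of the members ran from -0.17 to -0.021 over the alternatives. The difference in chromosome 16 share turned from 0.0459 to -0.0230 percentage points without the leading gene. The difference in members at 1 CPM or more, -0.972, was -1.56 at 0.5 CPM and -1.58 at 5 CPM. The 4 gapped genes became 7 with 2 libraries allowed on a side, 10 with a 1.5-fold gap, 0 with a 3-fold gap and 2 with 0.2 CPM added (ENSGALG00000031066 and ENSGALG00000047627). When 1 library was left out, 3 to 5 genes met the rule, not always the same ones. ENSGALG00000047627 no longer met it without CTRL 7, without KO 5 or without KO 11. In its place ENSGALG00000029381 met it without CTRL 7 and ENSGALG00000043052 without KO 11. For ENSGALG00000047627 the KO minus CTRL share of libraries above the gap went from 5.56 to -2.02 percentage points without KO 5 or KO 11, with a range of -2.02 to 16.7 over left-out libraries. Neighbour pairs counted went from 3 to 6 at r of 0.5 and from 1 to 4 when 1 library was left out. The cause of these moves was not tested. With 0 all-or-none genes, the planned sum of such genes per library could not be run. Between libraries of equal replicate number, correlations of their deviations ran from -0.432 to 0.428 over 9 pairs. Closest to its own number was 1 CTRL library. For some libraries of both groups the submitters' header number differs from the replicate number. Neither these correlations nor the replicate block can therefore decide whether embryos were paired. The replicate block gave 10 members at an unadjusted p under 0.05 (4 higher and 6 lower, or 15.4%, against 11.0% of all genes), with 0 passing adjustment. Over the 9 pairs of equal number the share difference was 0.0694 percentage points (exact sign-flip permutation p = 0.0508). These pairs leave out KO 10, KO 11 and KO 12, unlike the 0.0459 over all libraries. The sign-flip test takes libraries of equal number as pairs, which the labels do not state, so its p cannot be relied on. Counts limit the lowest members, 5 of which had a library at 0.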

Other observations

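By SD, the embryos farthest from the median library on chromosome 16 were not those farthest over the whole transcriptome. The SD of log2 differences from the median library over the 65 tested members was 1.11 in CTRL 8 and 1.10 in KO 2, against 0.45 and 0.46 in the same libraries over all genes tested. By the number of members more than 1 log2 unit from the median, KO 2 came first with 18 and KO 8 next with 14, and CTRL 8 had 10, fewer than KO 10 with 13 or CTRL 3 with 12. CTRL 8 and KO 2 are both female-like and of different groups. In 7 members both libraries lay more than 1 log2 unit from the median, in the same direction each time, 4 below and 3 above. No share over all tested genes or for other pairs of libraries stands beside this count. Those below were ENSGALG00000040185, ENSGALG00000048880, ENSGALG00000028659 and ENSGALG00000049461 (2283023-2395890, plus strand), the last at 2.40 and 1.28 CPM with a median of 5.40 CPM in the others. Those above were ENSGALG00000000136 and the overlapping pair ENSGALG00000029381 and ENSGALG00000035075, at 4.197 and 3.80 CPM and at 5.20 and 3.99 CPM. Some of these values rest on few counts. ENSGALG00000048880 had 1 count in each of the libraries, and ENSGALG00000028659 had 2 in CTRL 8 and 8 in KO 2.

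Across the 65 members, the log2 differences from the median in CTRL 8 and in KO 2 had r of 0.61, the second highest of 210 pairs of libraries, and over all tested genes r of 0.35. Without the 7 members named above, r over the 58 left was 0.070. Those 7 were picked from the same values and all agreed in direction, so leaving them out lowers r by construction. The lower r therefore cannot decide what the r of 0.61 rested on. Over the 31 members with a mean of at least 10 CPM, r was 0.84. These include ENSGALG00000040185, which lay 4.70 log2 units below the median in CTRL 8 and 3.28 below it in KO 2. It is the only one of the 7 with a mean that high. No other member with a mean that high lay more than 1 log2 unit from the median in both libraries. No r without ENSGALG00000040185 is given, so how far the 0.84 depends on it was not tested. The 0.84 therefore cannot be read as agreement among the other members at that level. KO 7 and KO 10 had the highest r over the members, 0.63, with -0.19 over all tested genes. Genes are not independent replicates, and both libraries were picked after their values were seen, so these are descriptions without a test.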
